A study of Mus musculus with 8 samples.

Results

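Mineralocorticoid and glucocorticoid response genes were followed in mpkCCD cells as a set of 9 genes among the 55414 of the deposited table: the 2 receptors (Nr3c1 and Nr3c2), the 2 enzymes that handle their hormone (Hsd11b1 and Hsd11b2) and 5 genes known as targets of the receptors (Sgk1, Tsc22d3, Fkbp5, Zbtb16 and Lcn2). They were chosen by official gene symbol, and each symbol matched 1 row. The mpkCCD line was derived from microdissected cortical collecting ducts of SV-PK/Tag transgenic mice and re-cloned for high Aqp2, so all libraries come from 1 clonal subline grown on permeable supports. One group received tolvaptan, an antagonist of the V2 vasopressin receptor, at 50 nM together with the V2 agonist dDAVP at 0.1 nM for 24 h (4 libraries), and the other received the vehicle of tolvaptan with 0.1 nM dDAVP (4 libraries). The methods list 50 nM dexamethasone, a synthetic glucocorticoid, in both the growth medium and the minimal medium of these cells, and list no aldosterone. They do not restate the medium of the 24 h RNA-seq experiment. No library labelled as free of glucocorticoid was included, so the part of any level that depends on the hormone cannot be told apart from the part that does not. The labels do not say if the libraries are separate cultures, so p-values reflect library-to-library spread only.

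The mineralocorticoid receptor and the glucocorticoid receptor are nuclear receptors that, once bound by hormone, recognize the same DNA element. Corticosterone, the glucocorticoid of the mouse, binds both. In principal cells of the collecting duct 11beta-hydroxysteroid dehydrogenase type 2 inactivates corticosterone and so leaves the mineralocorticoid receptor to aldosterone, which raises sodium reabsorption through the epithelial sodium channel. The type 1 enzyme works in the other direction and regenerates active hormone. Dexamethasone acts mainly on the glucocorticoid receptor.

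The element itself is shown in the promoter windows of the members, because 5 of them were included as targets. RefSeq windows of 300 bases (250 before and 50 after an annotated start, GRCm38.p6) matched 6 of the 9 members and gave 13 windows, 6 of them for Sgk1 and 3 for Tsc22d3. Nr3c1, Hsd11b2 and the target gene Zbtb16 had no window and were not searched. Both strands were searched for the full palindromic glucocorticoid response element (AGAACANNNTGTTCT) and for its 6-letter arm (AGAACA), which is contained in the full element. The full element occurred in 3 of the 32851 windows of all genes (0.00913%), and 1 of these was a window of Sgk1. There it spans chr10:21993701-21993715, with its first base 189 bases before the start site of that window and 965 bases before the most downstream annotated Sgk1 start site. The arm was present in 19.0% of all windows, and among the members in 3 windows of Sgk1 and 1 of Tsc22d3. The window of Lcn2 held neither, and it held the letters TTGCNNAA, a core bound by C/EBP factors that occurs in 10.8% of all windows and in 3 of the 13 windows of the members, 1 each of Lcn2, Nr3c2 and Sgk1. The cAMP response element (TGACGTCA) was in none of the 13 windows and in 1.79% of all windows. Its core (TGACG, contained in the full element) was in 20.8% of all windows and in 1 window each of Sgk1 and Tsc22d3. The NF-kB consensus was in 1 window of Tsc22d3 and in 8.46% of all windows. Such matches describe letters and not occupied sites. In the 3 windows that follow, capitals mark the full element in Sgk1 (chr10:21993640-21993939, plus strand), the arm in Tsc22d3 (chrX:140600473-140600772, minus strand) and the C/EBP core in Lcn2 (chr2:32387690-32387989, minus strand), each written 5′ to 3′ along its gene.
Sgk1: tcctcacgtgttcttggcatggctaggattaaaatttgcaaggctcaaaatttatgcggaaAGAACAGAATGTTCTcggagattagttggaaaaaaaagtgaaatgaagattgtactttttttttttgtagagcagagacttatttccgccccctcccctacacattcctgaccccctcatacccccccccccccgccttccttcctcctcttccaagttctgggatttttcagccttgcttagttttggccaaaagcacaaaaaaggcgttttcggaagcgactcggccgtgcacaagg
Tsc22d3: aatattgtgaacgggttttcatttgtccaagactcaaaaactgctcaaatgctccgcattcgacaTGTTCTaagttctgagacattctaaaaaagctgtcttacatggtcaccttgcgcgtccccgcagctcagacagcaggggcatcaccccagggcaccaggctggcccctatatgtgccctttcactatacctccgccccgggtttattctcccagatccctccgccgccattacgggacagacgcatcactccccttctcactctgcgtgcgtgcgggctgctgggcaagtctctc
Lcn2: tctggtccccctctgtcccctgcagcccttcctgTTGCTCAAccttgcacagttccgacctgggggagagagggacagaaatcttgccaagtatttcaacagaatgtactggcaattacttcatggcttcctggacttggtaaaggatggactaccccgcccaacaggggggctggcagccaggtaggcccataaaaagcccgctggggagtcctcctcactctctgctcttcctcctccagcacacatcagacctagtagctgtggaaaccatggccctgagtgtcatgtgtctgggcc

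Values are TPM (transcript abundance scaled per library), with equal sums in all libraries and a correction for transcript length, so levels can be compared between genes. Between groups, equal sums tie the value of each gene to shifts in abundant mRNAs. Small differences between groups therefore depend on the scaling. The log2 fold change was positive for 63.9% of the genes tested, and results with other scalings are given below. Read depth cannot be recovered from this unit. Genes above 0 TPM numbered 27991 to 30407 per library with tolvaptan and 24795 to 27353 with dDAVP alone, with no overlap. The reason for this difference was not tested. As a check of the treatment, Aqp2, the apical water channel that vasopressin induces, stood at 237 to 339 TPM with tolvaptan plus dDAVP and at 2828 to 3211 TPM with dDAVP alone. Avpr2, which encodes the V2 receptor, stood at 192 to 219.6 TPM with tolvaptan, against 257 to 277 TPM with dDAVP alone. Of 14 principal cell markers, 10 exceeded 10 TPM and were tested: 6 fell and 2 rose. These changes made up 80% of the markers tested in that list, against 16.1% of all genes. The summed level of the list was 5375 to 6601 TPM with tolvaptan, against 10470 to 11170 TPM with dDAVP alone. Kcnj1, the apical potassium channel of principal cells, did not exceed 0.23 TPM in any library. Of 8 intercalated cell markers, 5 were under 1 TPM in every library and 0 of the 2 tested changed (summed level 134 to 174 TPM with tolvaptan, 144 to 170 TPM with dDAVP alone), and of 14 markers of other kidney cells, 12 were under 1 TPM in every library (summed level 18.0 to 19.7 TPM with tolvaptan, 14.8 to 16.3 TPM with dDAVP alone). Of the intercalated cell markers under 10 TPM, Slc4a9, a basolateral anion exchanger, held 0.79 to 1.45 TPM with tolvaptan, against 2.07 to 2.39 TPM with dDAVP alone (log2 fold change -0.65, limma adjusted p = 0.0359 in a fit over every gene above 0 TPM). No marker of these lists was at 0 in all 8 libraries. The part of these shifts in the results on the steroid response genes was not tested.

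The steroid response genes covered more than 3 orders of magnitude in level, and the treatment moved none of them by 1.5-fold in the genes tested. Tsc22d3 was the most abundant, followed by Lcn2, Sgk1 and Fkbp5, then Hsd11b2 and Nr3c1, then Zbtb16, with Nr3c2 and Hsd11b1 last. The order of mean TPM was the same in both groups. With tolvaptan, the ranges of Sgk1 and Fkbp5 overlapped, as did those of Hsd11b2 and Nr3c1; with dDAVP alone, the overlapping neighbours were Lcn2 and Sgk1. By mean TPM, Tsc22d3 was number 37 of all genes with tolvaptan and number 36 with dDAVP alone, so a glucocorticoid target was among the most abundant mRNAs of these cells. Nr3c2 and Hsd11b1 did not reach 10 TPM in any library, the minimum for the main test, and 7 members were tested among 9943 genes.

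**Figure D1:**
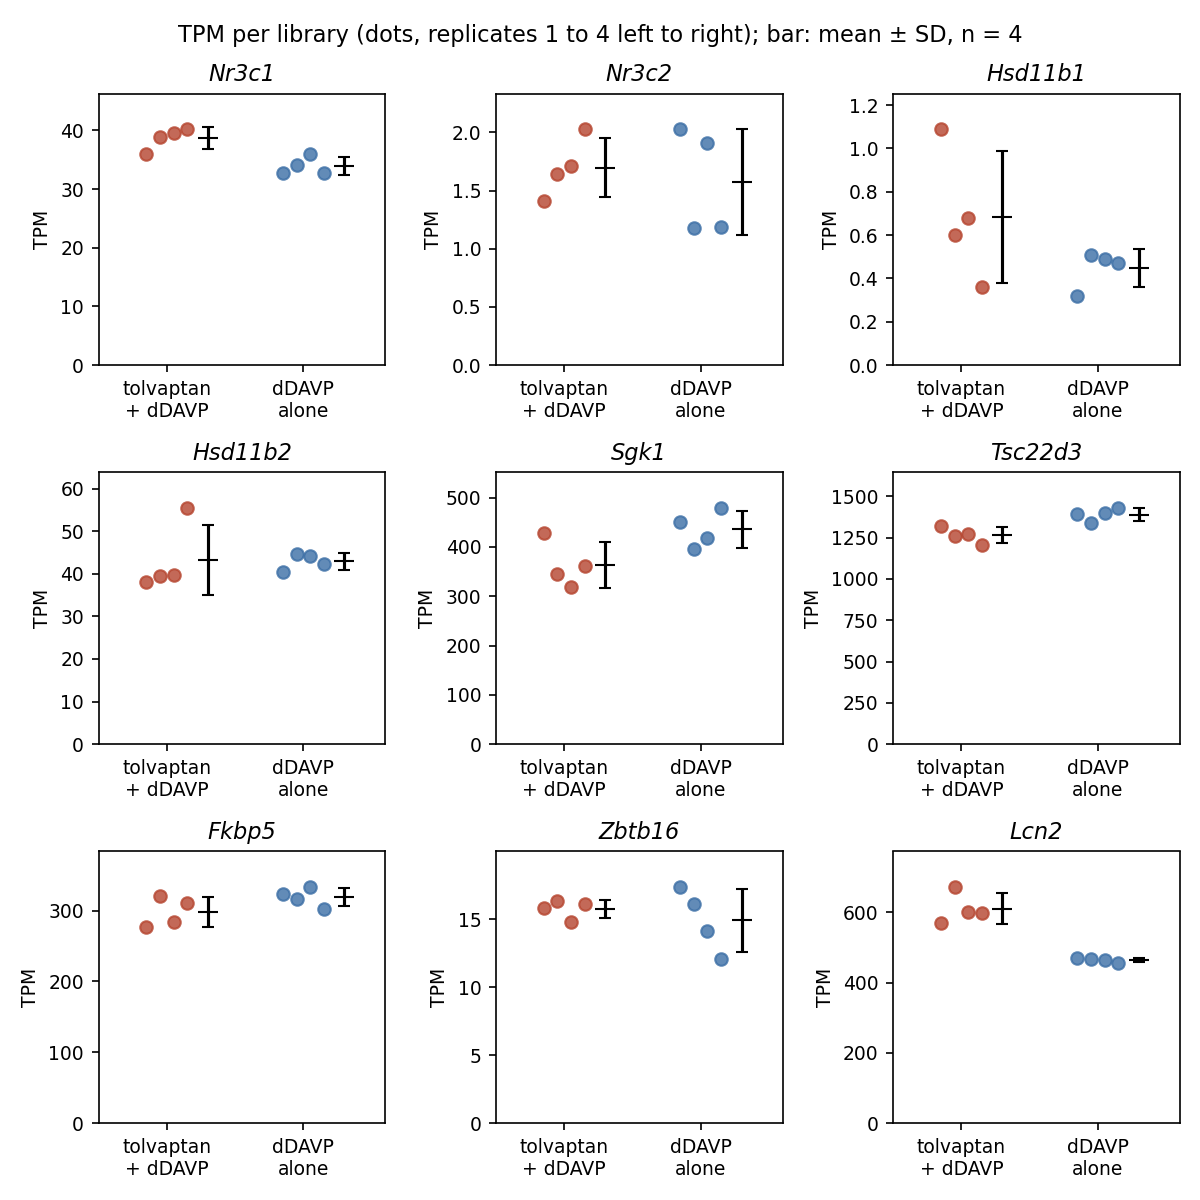
TPM of the 9 genes in each library, on linear axes that start at 0. Red dots are the 4 tolvaptan plus dDAVP libraries and blue dots the 4 dDAVP alone libraries, and the black bars give mean ± SD (n = 4). The groups are apart in Nr3c1, Tsc22d3 and Lcn2, and overlap in the other 6.

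Of the 7 genes tested, 2 rose (Lcn2 and Nr3c1) and 1 fell (Tsc22d3) at an adjusted p under 0.05 from limma, against 16.1% of all genes tested (10% higher and 6.10% lower). On all genes the split was 994 higher and 607 lower, and after centring every library on 1 common median it was 576 higher and 825 lower. The median log2 fold change of the 7 was -0.01, against 0.05 over all genes. The same 3 members were those whose groups did not overlap, as held for 23.1% of all genes (15.1% higher and 7.99% lower). Sgk1 also had an unadjusted p under 0.05, which makes 4 of the 7 members against 30.9% of all genes. None of the 7 was beyond 1.5-fold on the log2(TPM + 1) scale, which 4.04% of all genes were. The count depended on single libraries: it was 1 (Lcn2) without tolvaptan replicate 2 or 3 or without dDAVP replicate 1, 2 or 4, and 4 without tolvaptan replicate 1.

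**Figure D2:**
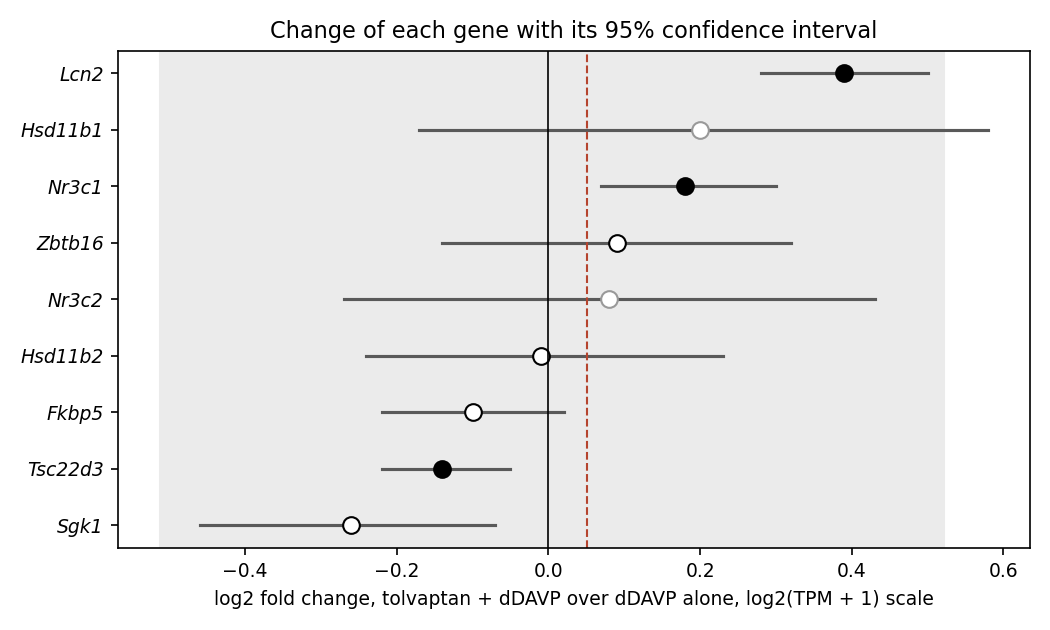
Log2 fold change (tolvaptan plus dDAVP over dDAVP alone, on the log2(TPM + 1) scale) of each gene with its 95% confidence interval. Filled circles passed an adjusted p of 0.05, open circles did not, and grey-edged circles are the 2 genes under 10 TPM, taken from the fit over every gene above 0 TPM. The grey band holds the central 95% of all genes tested and the dashed line is their median of 0.05. Lcn2 lies highest at 0.39 and Sgk1 lowest at -0.26.

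Nr3c1 (ENSMUSG00000024431) encodes the glucocorticoid receptor. It was measured at 36.0, 38.9, 39.5 and 40.2 TPM with tolvaptan, against 32.8, 34.1, 36.0 and 32.7 TPM with dDAVP alone. All tolvaptan libraries lay above all dDAVP libraries, though tolvaptan replicate 1 (36.02) and dDAVP replicate 3 (35.95) nearly met. The mean was 38.7 ± 1.84 TPM with tolvaptan, against 33.9 ± 1.51 TPM with dDAVP alone (n = 4 each, ± SD), and the log2 fold change was 0.18 (SE of 0.05, limma adjusted p = 0.0427). The call was lost without tolvaptan replicate 2, 3 or 4 and without dDAVP replicate 1, 2 or 4 (adjusted p from limma 0.0540 to 0.118), and also after centring every library on 1 common median (0.14, adjusted p = 0.0862).

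Nr3c2 (ENSMUSG00000031618), which encodes the mineralocorticoid receptor, was a low transcript. It stood at 1.41, 1.64, 1.71 and 2.03 TPM with tolvaptan, against 2.03, 1.18, 1.91 and 1.19 TPM with dDAVP alone. The tolvaptan values lay inside the range of the dDAVP values. Exons of Nr3c2 overlap Gm10649 on the opposite strand, which did not exceed 0.12 TPM, and the kit does not mark strand. In the fit over all 39780 genes above 0 TPM, in which 2.31% of genes passed, its log2 fold change was 0.08 (95% confidence interval -0.27 to 0.43, limma adjusted p = 0.805; exact permutation p = 0.629, 2-sided, n = 4 each). Glucocorticoid receptor mRNA was the more abundant in every library, by 19.8 to 25.5 times with tolvaptan and by 16.2 to 28.9 times with dDAVP alone. The log2 ratio of Nr3c2 to Nr3c1 within a library averaged -4.52 ± 0.15 with tolvaptan and -4.47 ± 0.41 with dDAVP alone (n = 4 each, ± SD), a difference of -0.05 (exact permutation test over libraries, 2-sided, p = 0.83, adjusted p = 0.83 over the 2 ratios compared). With 4 libraries against 4, that test cannot go below 0.0286.

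Hsd11b2 (ENSMUSG00000031891), the enzyme that inactivates corticosterone in principal cells, was measured at 38.1, 39.5, 39.6 and 55.5 TPM with tolvaptan, against 40.3, 44.7, 44.3 and 42.3 TPM with dDAVP alone. Tolvaptan replicates 1 to 3 lay below every dDAVP library and replicate 4 above every one. The means were 43.2 ± 8.22 TPM with tolvaptan, against 42.9 ± 2.03 TPM with dDAVP alone (n = 4 each, ± SD), and the log2 fold change was -0.01 (95% confidence interval -0.24 to 0.23, limma adjusted p = 0.974). Without tolvaptan replicate 4 it was -0.13 (limma adjusted p = 0.0764). The same library was also the highest with tolvaptan for the sodium channel subunit gene Scnn1a, at 243 TPM against 174 to 184 TPM in the other tolvaptan libraries.

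Hsd11b1 (ENSMUSG00000016194), the enzyme that regenerates active glucocorticoid, was the least abundant of the 9. It was listed at 1.09, 0.60, 0.68 and 0.36 TPM with tolvaptan, against 0.32, 0.51, 0.49 and 0.47 TPM with dDAVP alone. Tolvaptan replicates 1 to 3 were above the dDAVP libraries and replicate 4 was among them. In the fit over every gene above 0 TPM its log2 fold change was 0.20 (95% confidence interval -0.17 to 0.58, limma adjusted p = 0.591; exact permutation p = 0.2, 2-sided, n = 4 each). The type 2 enzyme was thus the dominant mRNA of the pair in both groups.

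H6pd, which supplies the type 1 enzyme with its cofactor in the endoplasmic reticulum, fell. It stood at 56.0, 67.5, 64.5 and 75.8 TPM with tolvaptan, against 114, 121, 120.0 and 107 TPM with dDAVP alone, with no overlap. Its log2 fold change was -0.80 (SE of 0.08, limma adjusted p = 0.000154). Por, the electron donor of microsomal cytochromes P450, had a log2 fold change of -0.24 (limma adjusted p = 0.0390), a call lost in 7 of the 8 fits without 1 library, the exception being the fit without tolvaptan replicate 4 (adjusted p up to 0.118). The steroid 5alpha-reductase Srd5a1 did not pass (-0.07, limma adjusted p = 0.286). Of the 8 genes listed for hormone metabolism and export, 6 were tested, 2 fell and none rose. That is 33.3% of those tested, against 16.1% of all genes.

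Sgk1 (ENSMUSG00000019970) encodes the kinase that phosphorylates the ubiquitin ligase Nedd4-2 (Nedd4l) and thereby slows removal of the epithelial sodium channel from the membrane. Among the 6 members with promoter windows, only Sgk1 held the full response element shown above. It was measured at 428, 345, 320 and 362 TPM with tolvaptan, against 450, 395, 417 and 479 TPM with dDAVP alone. Tolvaptan replicate 1 lay within the dDAVP range, and the other tolvaptan libraries lay below all of it. The means were 363 ± 46.2 TPM with tolvaptan, against 435 ± 36.9 TPM with dDAVP alone (n = 4 each, ± SD). The log2 fold change of -0.26 (95% confidence interval -0.46 to -0.07) did not pass adjustment over all genes (limma adjusted p = 0.0709). Without tolvaptan replicate 1 it was -0.35 and passed (limma adjusted p = 0.0219).

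Tsc22d3 (ENSMUSG00000031431) encodes GILZ, the glucocorticoid-induced leucine zipper protein. Its libraries held 1321, 1260, 1274 and 1207 TPM with tolvaptan, against 1391, 1339, 1398 and 1429 TPM with dDAVP alone. The groups did not overlap, and replicates agreed closely, with a coefficient of variation of 3.72% with tolvaptan and 2.70% with dDAVP alone. The means were 1265 ± 47.1 TPM with tolvaptan, against 1389 ± 37.6 TPM with dDAVP alone (n = 4 each, ± SD), and the log2 fold change was -0.14 (SE of 0.04, limma adjusted p = 0.0384). The call was lost without tolvaptan replicate 2 or 3 and without dDAVP replicate 1, 2, 3 or 4 (adjusted p from limma 0.0549 to 0.120). The value depended on the scaling. It shrank to -0.04 after quantile normalization (limma adjusted p = 0.492) and was -0.18 with a common median (limma adjusted p = 0.0205). Within a library, the log2 ratio of Sgk1 to Tsc22d3 averaged -1.81 ± 0.16 with tolvaptan and -1.68 ± 0.09 with dDAVP alone (n = 4 each, ± SD); the difference of -0.13 did not pass (exact permutation test, 2-sided, p = 0.257, adjusted p = 0.514 over the 2 ratios).

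Fkbp5 (ENSMUSG00000024222) encodes a cochaperone that binds the receptor complex and lowers its affinity for hormone, and it is itself induced by glucocorticoid. It stood at 277, 320.0, 284 and 311 TPM with tolvaptan, against 323, 317, 333 and 303 TPM with dDAVP alone. Tolvaptan replicates 1 and 3 were below the dDAVP range and replicates 2 and 4 within it. The log2 fold change was -0.10 (95% confidence interval -0.22 to 0.02, limma adjusted p = 0.252).

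Zbtb16 (ENSMUSG00000066687) encodes PLZF, a zinc finger transcription factor that glucocorticoid induces in many cells. It was measured at 15.8, 16.3, 14.8 and 16.1 TPM with tolvaptan, against 17.4, 16.1, 14.1 and 12.1 TPM with dDAVP alone. The tolvaptan values lay inside the dDAVP range. The log2 fold change was 0.09 (95% confidence interval -0.14 to 0.32, limma adjusted p = 0.604), and without dDAVP replicate 4 it was 0.00.

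Lcn2 (ENSMUSG00000026822) encodes lipocalin 2, a secreted protein that binds bacterial siderophores and is used as a marker of tubular injury; aldosterone induces it in cardiovascular cells. It rose in all 4 libraries. Its libraries held 570.0, 672, 601 and 597 TPM with tolvaptan, against 471, 467, 465 and 457 TPM with dDAVP alone. The lowest tolvaptan value stood well clear of the highest dDAVP value, and the dDAVP libraries varied by only 1.28% (coefficient of variation) against 7.13% with tolvaptan. The means were 610.0 ± 43.5 TPM with tolvaptan, against 465 ± 5.96 TPM with dDAVP alone (n = 4 each, ± SD), which is 31.3% higher with tolvaptan. The log2 fold change of 0.39 (SE of 0.05, limma adjusted p = 0.000633) was exceeded by the rise of 4.63% of all genes. It passed in all 18 alternative fits, with log2 fold changes of 0.34 to 0.44 and adjusted p of 7.1e-05 to 0.00629.

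The listed regulators of Lcn2 and acute phase genes fell where they passed. Of 16 listed regulators, partners and acute phase companions, 9 were tested, and 4 of these fell and 2 rose. The 2 that rose were Lcn2 itself and the receptor gene Lrp2. The calls made up 66.7% of the genes tested in this list, against 16.1% of all genes. The transcription factor Cebpd, known to drive acute phase genes, stood at 3.29, 3.38, 2.84 and 4.47 TPM with tolvaptan, against 21.1, 20.9, 22.7 and 23.9 TPM with dDAVP alone (log2 fold change -2.38, limma adjusted p = 1.33e-06). Complement C3 had a log2 fold change of -1.71 (limma adjusted p = 1.55e-06) and Lbp, the lipopolysaccharide binding protein gene, had -0.90 (limma adjusted p = 0.000133). Nfkbiz, a nuclear IkB protein required for Lcn2 induction in other cells and named here after its value was seen, had a log2 fold change of -0.56 (limma adjusted p = 0.000159). The NF-kB subunit genes did not pass: Rela held 172 to 219 TPM with tolvaptan, against 169 to 177 TPM with dDAVP alone (0.16, limma adjusted p = 0.126), and Nfkb1 had a log2 fold change of 0.02 (limma adjusted p = 0.852). Both were named after their values were seen. Cebpb, also named afterwards, was held at 194 to 413 TPM with tolvaptan, the top value being replicate 4, and at 289 to 332 TPM with dDAVP alone, and did not pass (-0.32, limma adjusted p = 0.293), though it fell without tolvaptan replicate 4 (-0.55, adjusted p = 0.00199). Of the Lcn2 receptors, Slc22a17 did not exceed 0.17 TPM in any library, and Lrp2 (megalin) stood at 10.6 to 11.6 TPM with tolvaptan, against 7.80 to 8.43 TPM with dDAVP alone (log2 fold change 0.41, limma adjusted p = 0.0108; not passed after quantile normalization).

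Genes that glucocorticoid is known to induce moved in both directions. Of 30 listed, 22 were tested, and 6 fell (with Tsc22d3 among them) and 3 rose (Lcn2 among them). That is 40.9% of those tested, against 16.1% of all genes. The median log2 fold change was -0.10, against 0.05 over all genes. Without tolvaptan replicate 4, 10 fell and 4 rose. The metallothioneins, which bind zinc and copper, fell: Mt2 held 148 to 189 TPM with tolvaptan, against 309 to 350.4 TPM with dDAVP alone (log2 fold change -0.91, limma adjusted p = 4.07e-05), and Mt1 had a log2 fold change of -0.75 (limma adjusted p = 8.63e-05). The MAP kinase phosphatase Dusp1, a further classical target, held 37.6 to 43.2 TPM with tolvaptan, against 48.0 to 49.3 TPM with dDAVP alone (log2 fold change -0.27, limma adjusted p = 0.00667). Tgm2 held 8.35 to 10.96 TPM with tolvaptan, against 18.13 to 19.96 TPM with dDAVP alone (log2 fold change -0.91, limma adjusted p = 0.000195). The largest fall of the list was that of Cebpd, described above (-2.38). Klf9 and Gadd45b rose, by 0.40 (limma adjusted p = 0.0169, not passed after quantile normalization) and 0.52 (limma adjusted p = 0.00300) on the log2 scale. The clock gene Per1 did not pass (-0.44, limma adjusted p = 0.0789), and it passed without tolvaptan replicate 4 (-0.59, adjusted p = 0.00758). Dusp1, Tgm2, Klf9, Gadd45b and Per1 were picked from the list after their values were seen.

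**Figure D3:**
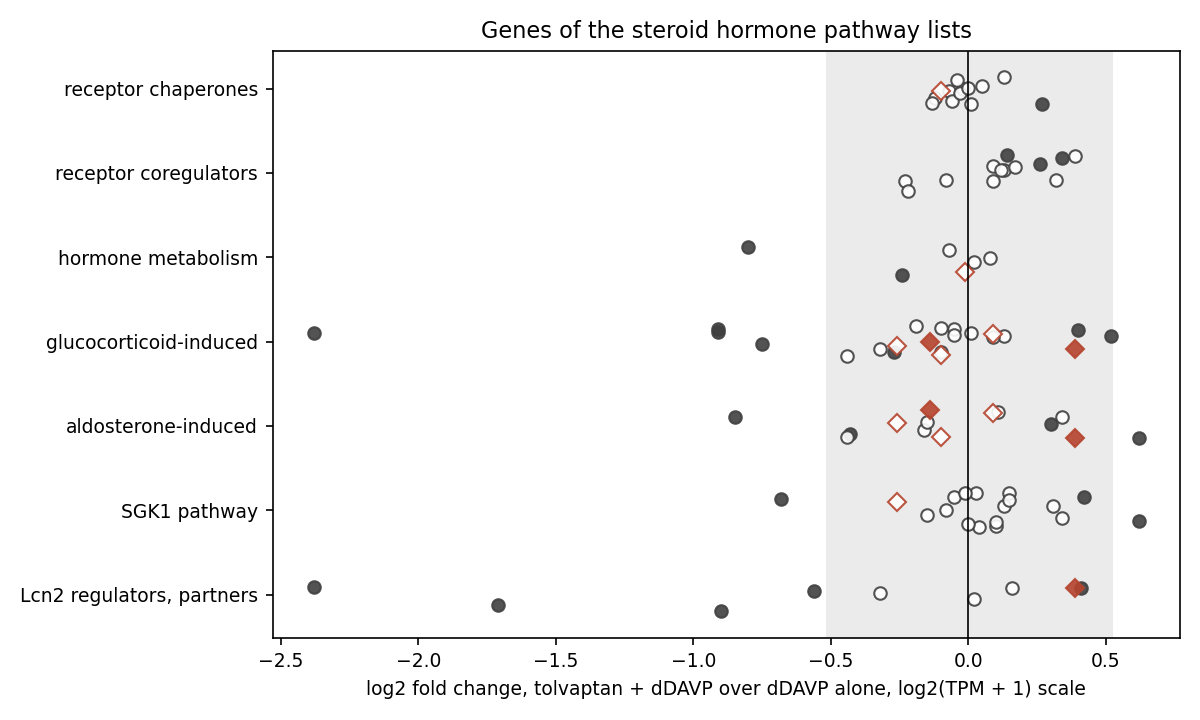
Log2 fold change (tolvaptan plus dDAVP over dDAVP alone, on the log2(TPM + 1) scale) of the genes tested in 7 lists, with a small vertical scatter for legibility. Red diamonds are the steroid response genes that belong to a list and dark circles the other genes; filled symbols passed an adjusted p of 0.05. The grey band holds the central 95% of all 9943 genes. Chaperones and coregulators lie within the band, and the lowest values are those of Cebpd at -2.38 and C3 at -1.71.

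The sodium transport genes that aldosterone is known to induce also split. Of 19 listed, 14 were tested, and 3 fell and 3 rose, the 5 steroid targets included (Tsc22d3 fell and Lcn2 rose). That is 42.9% of those tested, against 16.1% of all genes. Scnn1a, the alpha subunit of the epithelial sodium channel, held 174, 174, 184 and 243 TPM with tolvaptan, against 131, 119, 127 and 122 TPM with dDAVP alone (log2 fold change 0.62, limma adjusted p = 0.00238). The deubiquitinase Usp2 was lower, at 80.02 to 95.3 TPM with tolvaptan, against 151 to 173 TPM with dDAVP alone (log2 fold change -0.85, limma adjusted p = 2.32e-05), as was the sodium pump subunit Atp1b1 (-0.43, limma adjusted p = 0.000133). Cnksr3, a scaffold of the SGK1 complex named after its value was seen, rose by 0.30 (limma adjusted p = 0.00440).

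In the pathway around the SGK1 kinase, 18 of 22 listed genes were tested, and 2 rose and 1 fell, a share of 16.7% that is close to the 16.1% of all genes. Without tolvaptan replicate 4, 5 rose and 2 fell. Ndrg1, a substrate of the kinase, held 270.0 to 312 TPM with tolvaptan, against 451 to 509 TPM with dDAVP alone (log2 fold change -0.68, limma adjusted p = 3.14e-05). Scnn1g, the gamma subunit of the sodium channel, held 28.2 to 30.4 TPM with tolvaptan, against 19.9 to 23.4 TPM with dDAVP alone (log2 fold change 0.42, limma adjusted p = 0.00140). The beta subunit Scnn1b, picked afterwards, was low, at 0.25 to 0.3 TPM with tolvaptan, against 0.38 to 0.41 TPM with dDAVP alone. It did not pass in the fit over every gene above 0 TPM (-0.13, limma adjusted p = 0.591), though it passed there with no trend on mean expression. Nedd4l did not pass (-0.15, limma adjusted p = 0.0864) although its groups were apart, and it passed with a common median. Its value and that of the related kinase Sgk2 were picked afterwards; Sgk2 held 4.48 to 5.12 TPM with tolvaptan, against 6.51 to 7.84 TPM with dDAVP alone (-0.52, limma adjusted p = 0.0116 in the fit over every gene above 0 TPM, and 0.0503 without dDAVP replicate 2).

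The chaperones that fold the receptors and the coregulators that connect them to transcription changed upwards where they passed. Of 13 chaperones and cochaperones, all 13 were tested and only Hsp90aa1, the inducible HSP90 isoform, changed: it held 662 to 763 TPM with tolvaptan, against 568 to 620.0 TPM with dDAVP alone (log2 fold change 0.27, limma adjusted p = 0.00647). That is 7.69% of the list, against 16.1% of all genes, and the median of the list was -0.03. Without tolvaptan replicate 4, 1 chaperone rose and 2 fell. Bag1 (-0.12, limma adjusted p = 0.0684) and the kinase cochaperone Cdc37 (0.13, limma adjusted p = 0.208) did not pass, though Bag1 did without tolvaptan replicate 4 (-0.14, adjusted p = 0.0212) and with a common median. Of 14 coregulators, 13 were tested and 3 rose, which is 23.1% of those tested against 16.1% of all genes, and the median was 0.13 against 0.05 over all genes. They were Ppargc1a (0.34, limma adjusted p = 0.00303), the histone acetyltransferase Crebbp (0.26, limma adjusted p = 0.0184) and the corepressor Ncor1 (0.14, limma adjusted p = 0.0337). The call of Crebbp was lost without tolvaptan replicate 3 or dDAVP replicate 2 (adjusted p as high as 0.0526), and that of Ncor1 without tolvaptan replicate 3 or dDAVP replicate 2, 3 or 4 (as high as 0.0780), and with a common median. Without tolvaptan replicate 3 or dDAVP replicate 2, 1 coregulator rose. Over the 8 pathway lists together, 75 of 100 genes other than the 9 were tested, and 13 fell and 10 rose, which is 30.7% against 16.1% of all genes. The lists share genes and were drawn up with earlier results of these data known.

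For the 2 tested members with the smallest p, the genes with the most similar pattern over the 8 libraries were named as a description. Closest to Lcn2 were Nmnat3 (Pearson r = 0.993), Orc1 (0.986) and Parn (0.986), each higher with tolvaptan, with log2 fold changes of 0.21, 0.39 and 0.13. Closest to Tsc22d3 were Asph (0.983), Eif1a (0.981) and Mpc2 (0.980), each lower with tolvaptan, with log2 fold changes of -0.33, -0.18 and -0.30. All 8 points share the 2 groups, which carry most of such a correlation.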

How the data were processed

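Poly(A)-primed cDNA (SMARTer V4) of 8 mpkCCD libraries was sequenced by the authors, who used STAR for alignment (mouse Ensembl, release 106) and RSEM for quantification; their versions are not given in the sources used here. The deposited values are TPM, 1 column per library. Counts were not used here, so depth is unknown, no counting interval is given and the DESeq2 test of the methods was not run. Group and replicate in the column names assigned columns to samples.

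Genes with a maximum above 10 TPM were kept (9943 of 55414). Groups were compared on log2(TPM + 1) with the R (4.3.3) package limma (3.58.1), a 2-sided moderated test with the variance trended on expression, and p was adjusted after Benjamini and Hochberg across kept genes; members under the filter were taken from the same fit over all 39780 genes above 0 TPM. This scale understates changes of low genes. Single values were compared by an exact permutation test over libraries (scipy 1.17.1). The script was tested on simulated data. The kit does not mark strand; in GENCODE M21, exons of Nr3c2 alone overlap another gene (Gm10649, at most 0.12 TPM), on the opposite strand.

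The 9 members, the lists and the tests were chosen with earlier results of these data known. Named genes were the members, the 3 other genes with the smallest p in each list, Aqp2 and Avpr2 as a check, the 3 genes most correlated with each of 2 members, and genes marked as picked afterwards. Of the 3 genes of each cell marker list, most are not described. Alternatives were other pseudocounts (0.1 and 5), filters, scalings, models of the variance, a ratio of mean TPM, blocking on replicate number, and dropping libraries in turn. Promoter windows are RefSeq's (GRCm38.p6), another build than that of the authors, and were matched by symbol.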

Additional observations from a re-analysis of the deposited data

Results flagged for a closer look

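Of 70 groups of 4 libraries examined, 4 held a library far from the other 3 by Dixon's criterion. These groups cover 35 named genes, without those picked afterwards or by correlation. Chance gives about 1 in 20, which is 3.5 of the 70. Hsd11b2 in tolvaptan plus dDAVP replicate 4 was 55.46 TPM, against 38.1 to 39.64 TPM in the other tolvaptan libraries. Scnn1a in the same library was 242.97 TPM, against 173.69 to 184.23 TPM. Mt1 in dDAVP alone replicate 4 was 2203.53 TPM, against 1992.55 to 2006.16 TPM. Rhcg, an ammonia channel of intercalated cells, was 98.53 TPM in dDAVP alone replicate 4, against 95.49 to 96 TPM.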

How the results depend on the processing

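Lcn2 rose in all alternatives, and Fkbp5, Zbtb16, Hsd11b1, Hsd11b2 and Nr3c2 passed in none. The count of members called was 1 after quantile normalization, with replicate number as a block and with every gene above 0 TPM tested, and 1 to 4 without 1 library. Nr3c1 missed the threshold with a common median (0.14), after quantile normalization (0.13), with the replicate block (0.18, adjusted p = 0.0871), with every gene above 0 TPM (0.18) and with maximum TPM above 1 (0.18), and ran from 0.16 to 0.22 without 1 library. Tsc22d3 missed it after quantile normalization (-0.04), with no trend on mean expression (-0.14), with the replicate block (-0.14, adjusted p = 0.101) and with every gene above 0 TPM (-0.14), and ran from -0.16 to -0.11 without 1 library. Sgk1 passed with a weight per library (-0.29), and ran from -0.35 to -0.21 without 1 library. Nr3c2 had -0.05 after quantile normalization, Hsd11b2 0.01 as a ratio of group mean TPM (-0.13 to 0.05 without 1 library), Hsd11b1 0.61 as that ratio, and Zbtb16 0.00 to 0.16 without 1 library. The log2 ratio of Nr3c2 to Nr3c1 differed by -0.18 to 0.10 without 1 library. Over all genes, 994 rose and 607 fell; 1601 were called in all, 2682 with a weight per library, 911 with the replicate block, 920 with every gene above 0 TPM and 892 (without dDAVP replicate 4) to 2237 (without tolvaptan replicate 4) without 1 library. With a common median 576 rose and 825 fell. The listed pathway genes called were 23, 37 with a weight per library and 20 to 35 without 1 library, the 35 without tolvaptan replicate 4. The causes were not tested.

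The labels do not say if replicate numbers pair the libraries. Deviations of same-numbered libraries correlated at -0.0730 to -0.00463, and those of differently numbered libraries at -0.103 to 0.168. Such correlations cannot settle if the libraries were paired. Besides the changes given, the block ended the calls of Por, Ncor1, Lrp2, Klf9 and Sgk2 among named genes. The unknown depth limits Nr3c2 and Hsd11b1 most. Ratios without 1 library were added after the data were seen, and their exact p cannot go below 0.0571 with 4 libraries against 3.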

Other observations

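Several genes of the lists had their extreme tolvaptan value in tolvaptan replicate 4, and these were picked after their values were seen. Cebpb was 413 TPM there and 194 to 227 TPM in the other tolvaptan libraries, Krt19 was 1030 TPM and 782 to 834 TPM, and Wnk1 was 20.2 TPM and 26.1 to 32.2 TPM.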
